A study of Mus musculus with 11 samples.

Results

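Strongly elongated objects were taken from the segmentation tables of a MERFISH series on mouse hippocampus. MERFISH (multiplexed error-robust fluorescence in situ hybridisation) images single RNA molecules in a tissue section and assigns them to outlined objects, each meant to stand for a cell. The objects were selected on 3 measured values: an object counted as strongly elongated if its volume was at least 100 µm3, it held at least 10 transcripts and its anisotropy was at least 2.5. The tables list anisotropy without defining it; it was read here as a ratio that starts near 1 for a round outline and grows as the outline lengthens. Volumes were taken to be in µm3 and positions in µm, and the intensity units are not defined either. By this rule 7576 objects were strongly elongated, of 232117 that passed the volume and transcript minimum and 831598 listed in all. They were compared with 130669 compact objects, which passed the same minimum and had an anisotropy below 1.5.

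The tables described 11 sections, each 10 µm thick, from brains of male wild-type C57Bl/6 mice aged 10 to 12 weeks. The CONTROL group (3 sections) received isotype antibodies, and the MELANOMA group (2 sections) received isotype antibodies after intradermal injection of D4M-3A.UV2 melanoma cells on both sides, 500000 cells per injection. The CONTROL ICI group (3 sections) was given 2 immune checkpoint inhibitors (ICI) by intraperitoneal injection. These were anti-CTLA-4, at 1 mg per dose 3 times a week, and anti-PD-1, at 200 µg per dose 2 times a week. The MELANOMA ICI group (3 sections) carried the tumour and received the same inhibitors. Engraftment lasted 1 week in both tumour groups, and inhibitor treatment lasted 3 weeks in both ICI groups. Each section is named below by its group and replicate number. The labels do not say which animal a section came from, so the spread between sections may include technical spread. The tumour lies in the skin, so these groups model a distant tumour and not one in the brain.

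An outline drawn in a section is not always a whole cell. DAPI stains nuclear DNA, and the PolyT stain binds the poly(A) tails of messenger RNA and fills the cell body. In brain tissue, endothelial cells along capillaries are thin and long, neurons carry long processes, and a section cuts cells at any angle. The tables give 1 transcript total per object, and transcripts by gene were not analysed here. The hippocampal origin therefore could not be checked against marker genes, and no elongated object was given a cell type.

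The leading digits of the object identifiers fell into 3 sets, called imaging runs here. Of the CONTROL sections, replicates 1, 2 and 3 lay in runs 1, 2 and 3 in that order. MELANOMA 1 lay in run 1 and MELANOMA 2 in run 2. For CONTROL ICI, replicates 1 and 2 lay in run 1 and replicate 3 in run 3. For MELANOMA ICI, replicate 1 lay in run 3, replicate 2 in run 1 and replicate 3 in run 2. Run 1 thus has 5 sections and the others 3 each. Sections carried between 349960 transcripts (CONTROL ICI 3) and 3164943 transcripts (CONTROL 3) assigned to objects. The 3 sections of run 3 stood apart from the other 8 in most measures of shape, so values are given by run throughout.

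Boxes around the elongated objects overlapped in runs 1 and 2. The tables give each object's bounding box in the plane of the section and no depth. A pair of objects was called overlapping when their boxes shared at least 50% of their joint area. In runs 1 and 2, 6020 of 6898 elongated objects (87.3%) overlapped at least 1 other listed object, and 2395 overlapped another elongated object. By section the share with any overlap was 83.9% to 91.8% of elongated and 55.3% to 72.9% of compact objects. In run 3, 1 of 678 elongated objects overlapped another object. An elongated object in runs 1 and 2 had 1.77 to 3.07 overlapping partners on average, against 1.07 to 1.96 for a compact object. Whether overlapping outlines belong to 1 cell was not tested. Since the elongated objects of these 2 runs may not be separate observations, the results that rest on them are also given with 1 object per overlapping set. That count was made among filtered objects, taken from large to small volume. An object was kept unless its box overlapped one already kept, which left 3979 elongated objects in runs 1 and 2 and 677 in run 3. Kept objects may still overlap listed objects that did not pass the minimum.

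**Figure D1:**
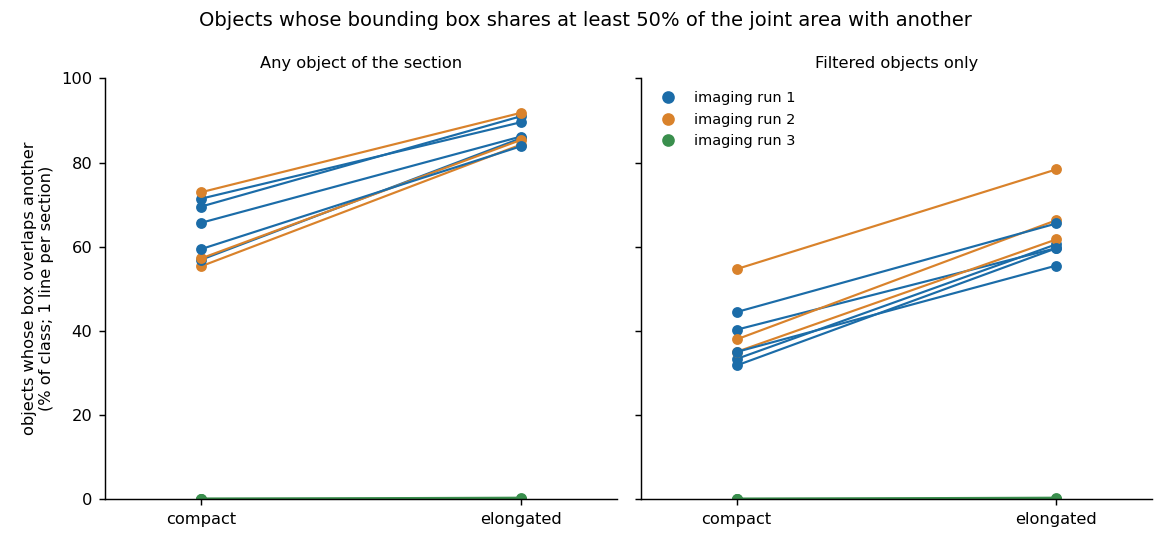
Share of compact and elongated objects, in percent of the class, whose bounding box shared at least 50% of the joint area with another object; each line joins the 2 classes of 1 section, coloured by imaging run. All 8 sections of runs 1 and 2 rise from compact to elongated, and all 3 sections of run 3 lie at or near 0.

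The share of elongated objects differed between imaging runs far more than between treatment groups. In run 1 the share of filtered objects was 5.10% in CONTROL 1, 4.23% in MELANOMA 1, 5.00% in CONTROL ICI 1, 5.10% in CONTROL ICI 2 and 4.09% in MELANOMA ICI 2. In run 2 it was 4.57% in CONTROL 2, 5.07% in MELANOMA 2 and 5.59% in MELANOMA ICI 3, the highest of the 11 sections. In run 3 it was 0.768% in CONTROL 3, 0.643% in CONTROL ICI 3 and 0.769% in MELANOMA ICI 1. The means were 4.71% ± 0.50 (SD, n = 5), 5.07% ± 0.508 (SD, n = 3) and 0.727% ± 0.0724 (SD, n = 3). Runs 1 and 2 overlapped, and the highest section of run 3 lay below the lowest section of the other runs. CONTROL ICI 3, the lowest section, rests on 57 elongated objects, and its Wilson interval at 95% ran from 0.497% to 0.832%. Such intervals cover counting error only, and they take objects as separate, which was not tested for the overlapping ones in runs 1 and 2.

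The gap between runs was there before the volume and transcript minimum was applied. Of all listed objects, 9.19% to 10.7% had an anisotropy of at least 2.5 in the sections of runs 1 and 2, against 0.981% to 1.09% in run 3. The minimum then kept 5.98% to 16.7% of these anisotropic objects in runs 1 and 2, and 35.4% to 60.7% in run 3. With 1 object per overlapping set the share was 3.26% to 4.36% in run 1, 3.37% to 4.18% in run 2 and 0.643% to 0.769% in run 3. Run 3 stayed below all 8 other sections in this count.

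**Figure D2:**
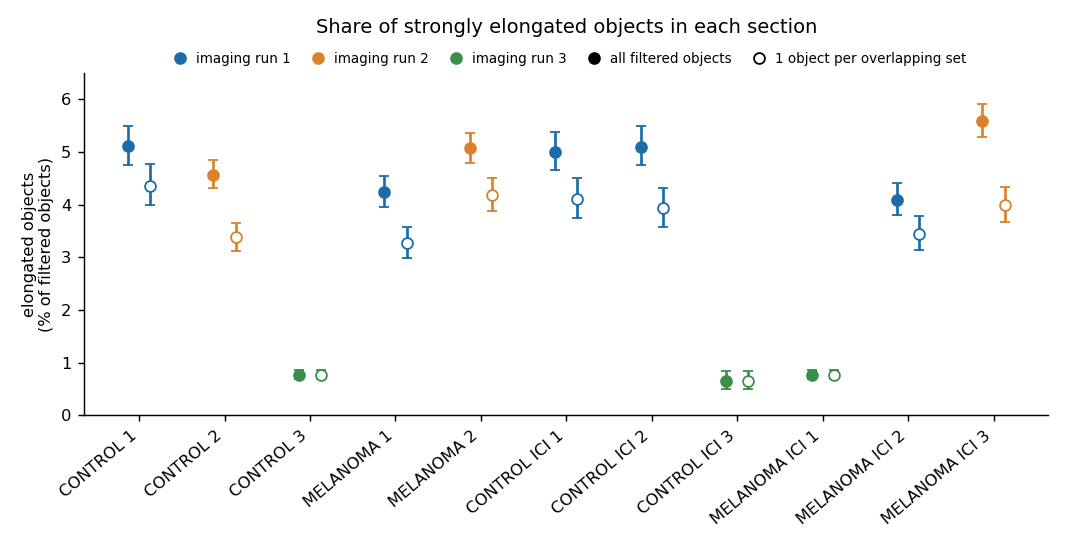
Share of strongly elongated objects in percent of the filtered objects of each section, coloured by imaging run; filled points count all filtered objects, open points count 1 object per overlapping set, and bars are 95% Wilson intervals. The run 3 sections lie between 0.643% and 0.769%, and all other sections lie above 3.2% in both counts.

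Among themselves the elongated objects were close to the limit of the rule. Their median anisotropy was 2.72 to 2.77 in the 11 sections, and the highest single value was 6.93, in MELANOMA ICI 3. Objects of anisotropy 3.5 or more made up 5.68% to 7.92% of the elongated objects in runs 1 and 2, and 3.67%, 0% and 4.12% in CONTROL 3, CONTROL ICI 3 and MELANOMA ICI 1. A value of 0% among the 57 objects of CONTROL ICI 3 is a small count. Elongated objects carried 3.07% to 4.53% of the transcripts of filtered objects in runs 1 and 2, and 0.626% to 0.729% in run 3.

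Objects just inside and just outside the limit had overlapping ranges of median volume across sections. In the sections of run 1, objects of anisotropy 2.5 to 2.6 had a median volume of 601 to 805 µm3, and those of 2.4 to 2.5 had 660 to 851 µm3. In run 2 the median volumes were 431 to 706 µm3 inside and 468 to 744 µm3 outside. In run 3 they were 643 to 913 µm3 inside and 643 to 873 µm3 outside. Within a section the median volume was lower just inside the limit than just outside, except in CONTROL ICI 1, CONTROL ICI 3 and MELANOMA ICI 1. Whether shape was continuous across the limit was not tested.

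The elongated share depended on the size of the object, in opposite ways across runs at the large end. In runs 1 and 2, 5.90% ± 0.874 (SD, n = 5) and 6.49% ± 0.421 (SD, n = 3) of objects of 100 to 500 µm3 were elongated. Of objects of 2000 µm3 or more, 4.03% ± 0.502 and 4.42% ± 0.330 were elongated in these runs, above the shares of 3.63% and 3.21% at 1000 to 2000 µm3. In run 3 the share fell at each step, from 3.55% ± 0.898 (SD, n = 3) at 100 to 500 µm3 through 1.79% and 0.434% to 0.138% at 2000 µm3 or more. Run 3 held few small objects: 4.5% to 5.7% of its filtered objects were below 500 µm3, against 24.6% to 46.5% in the other runs. At equal volume class the run 3 share was still the lowest of the 3 runs.

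The shape of the elongated objects was not the same in the 3 runs. The longer side of the bounding box had a section median of 37.7 µm ± 1.63 (SD, n = 5) in run 1, 36.4 µm ± 0.184 (SD, n = 3) in run 2 and 15.6 µm ± 1.24 (SD, n = 3) in run 3. The shorter side was 19.9, 19.6 and 9.87 µm on average. Compact objects had a longer side of 19.9, 18.2 and 15.9 µm. In runs 1 and 2 the elongated objects were thus longer than compact ones by about the length of 1 compact object. In run 3 both classes had nearly the same length, and elongated objects were narrower, since the shorter side of compact objects was 14.0 µm. Boxes follow the image axes, so an object lying on the diagonal has a rounder box than its outline.

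Dividing volume by box area gives a length, which would be the thickness of the object if it filled its box. It was 0.932 µm ± 0.149 (SD, n = 5) for elongated objects in run 1, 0.799 µm ± 0.233 (SD, n = 3) in run 2 and 5.23 µm ± 0.210 (SD, n = 3) in run 3. Compact objects had 2.38, 2.62 and 7.51 µm. Elongated objects of runs 1 and 2 thus held little volume for the area they spanned, in sections 10 µm thick. The solidity score, whose scale the tables do not define, was 1.08, 0.930 and 6.34 for elongated objects and 2.26, 2.48 and 6.86 for compact objects.

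Volume and transcript number are in the rule, so their differences between elongated and compact objects are described without a test. The median volume of elongated objects was lower than that of compact objects in 11 of 11 sections. The ratio was 0.807 in run 1 (0.725 to 0.890), 0.755 in run 2 (0.747 to 0.766) and 0.468 in run 3 (0.406 to 0.577). In µm3 the medians of elongated objects were 630 to 785 in run 1, 437 to 716 in run 2 and 700.0 to 908 in run 3. The larger gap in run 3 lies on the compact side, where medians were 1574 to 1724 µm3 against 571 to 952 µm3 in the other runs. Transcripts per object were lower in elongated objects in 10 of 11 sections and equal, at 26, in CONTROL ICI 3.

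Transcripts per volume went in different directions by run. In run 1 elongated objects held 2.82 transcripts per 100 µm3 in CONTROL ICI 1, 3.23 in CONTROL ICI 2, 3.28 in MELANOMA ICI 2, 3.37 in CONTROL 1 and 3.93 in MELANOMA 1. The compact objects of these sections, in the same order, held 2.77, 3.20, 3.58, 4.16 and 4.34. The ratios of 0.811 to 1.02 therefore lay on both sides of 1. In run 2 the elongated objects held 4.26, 3.62 and 5.04 transcripts per 100 µm3 in CONTROL 2, MELANOMA 2 and MELANOMA ICI 3, against 5.69, 4.34 and 6.21 in compact objects, so all 3 were lower. In run 3 they held 5.99, 3.89 and 4.45 in CONTROL 3, CONTROL ICI 3 and MELANOMA ICI 1, against 3.33, 1.76 and 2.24. That is a ratio of 1.80 to 2.22, higher in 3 of 3 sections. When compact objects were weighted to the volumes of the elongated ones, the run 3 ratio was 1.3 to 1.41, and run 1 was below 1 in 5 of 5 sections (0.819 to 0.907). The mean over all 11 sections, 1.10, describes none of the runs.

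**Figure D3:**
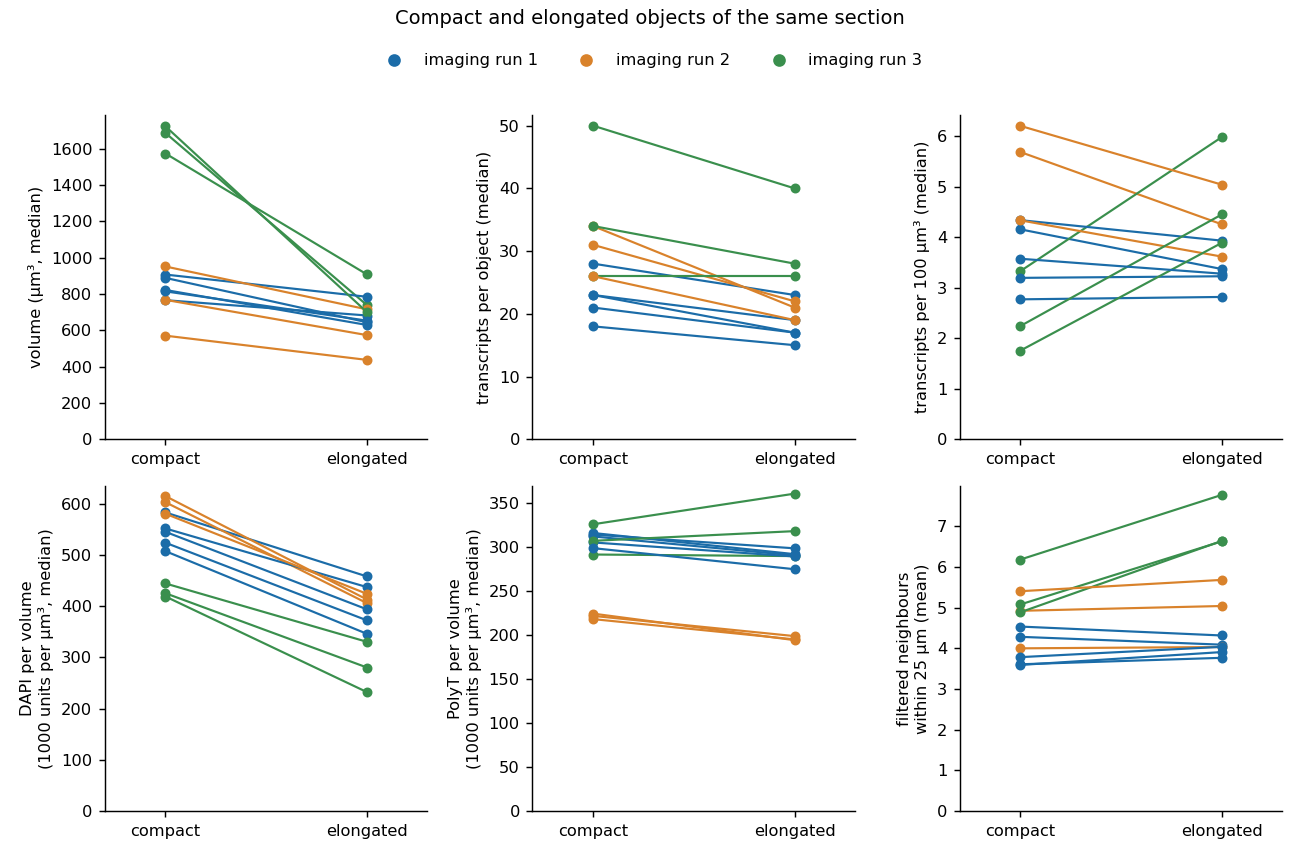
Measures in compact and elongated objects (medians over objects, the mean for neighbours), with 1 line per section coloured by imaging run and axes starting at 0. DAPI per volume falls from compact to elongated in all 11 sections, while transcripts per volume rises in run 3 and falls in run 2.

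The DAPI signal per volume was lower in elongated than in compact objects in every section. The signal is given in steps of 1000 units per µm3, as a median over objects, and the same unit is used for PolyT. Each of these signals is divided by volume, a value in the rule. A DAPI comparison weighted to the same volumes is therefore also given below. In run 1 elongated objects had 458 in CONTROL 1, 437 in MELANOMA 1, 394 in CONTROL ICI 1, 346 in CONTROL ICI 2 and 372 in MELANOMA ICI 2, against 583, 552, 546, 508 and 524 in compact objects. No elongated value of run 1 reached the lowest compact value. In run 2 they had 406 in CONTROL 2, 413 in MELANOMA 2 and 424 in MELANOMA ICI 3, against 603, 615 and 581. In run 3 they had 232 in CONTROL 3, 331 in CONTROL ICI 3 and 280 in MELANOMA ICI 1, against 419, 445 and 425. Within each run the classes did not overlap.

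The DAPI ratio of elongated to compact objects was 0.737 in run 1, 0.691 in run 2 and 0.647 in run 3, and 0.699 over all sections. On the log2 scale the difference was -0.52 ± 0.14 (SD, n = 11), lower in 11 of 11 sections (exact two-sided sign-flip test over sections, p = 0.000977, the smallest this design can give; Benjamini-Hochberg adjusted over 5 measures p = 0.00488). With 1 object per overlapping set it was -0.50, again lower in 11 of 11 sections (exact sign-flip test, adjusted p = 0.00488). With compact objects weighted to the same volumes it was -0.46 (exact sign-flip test, adjusted p = 0.00244). A single run is too small for this test, since 5 sections cannot give a p below 0.0625 and 3 sections cannot go below 0.25.

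The DAPI signal went down step by step with anisotropy, up to 3.5, in the means of runs 1 and 2. The mean of the section medians went down from 556 in the roundest step of anisotropy (from 1 upward) to 441 at 2 to 2.5 and 378 at 3 to 3.5 in run 1. In run 2 it went from 629 to 459 and 389.5. Among objects of anisotropy 3.5 or more, of which each section of these runs held 41 to 91, the mean was 364 in run 1 and 408 in run 2. There MELANOMA 1, CONTROL 2 and MELANOMA 2 were higher than at 3 to 3.5, so the decline did not reach the last step in these 3 sections. Run 3 had another course: the signal was 415 in the roundest step, 453 in the step that begins at 1.5 and 391 at 2 to 2.5, and dropped to 285 at 2.5 to 3. In all 3 sections of run 3 the signal in the step that begins at 1.5 was above that of the roundest objects.

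**Figure D4:**
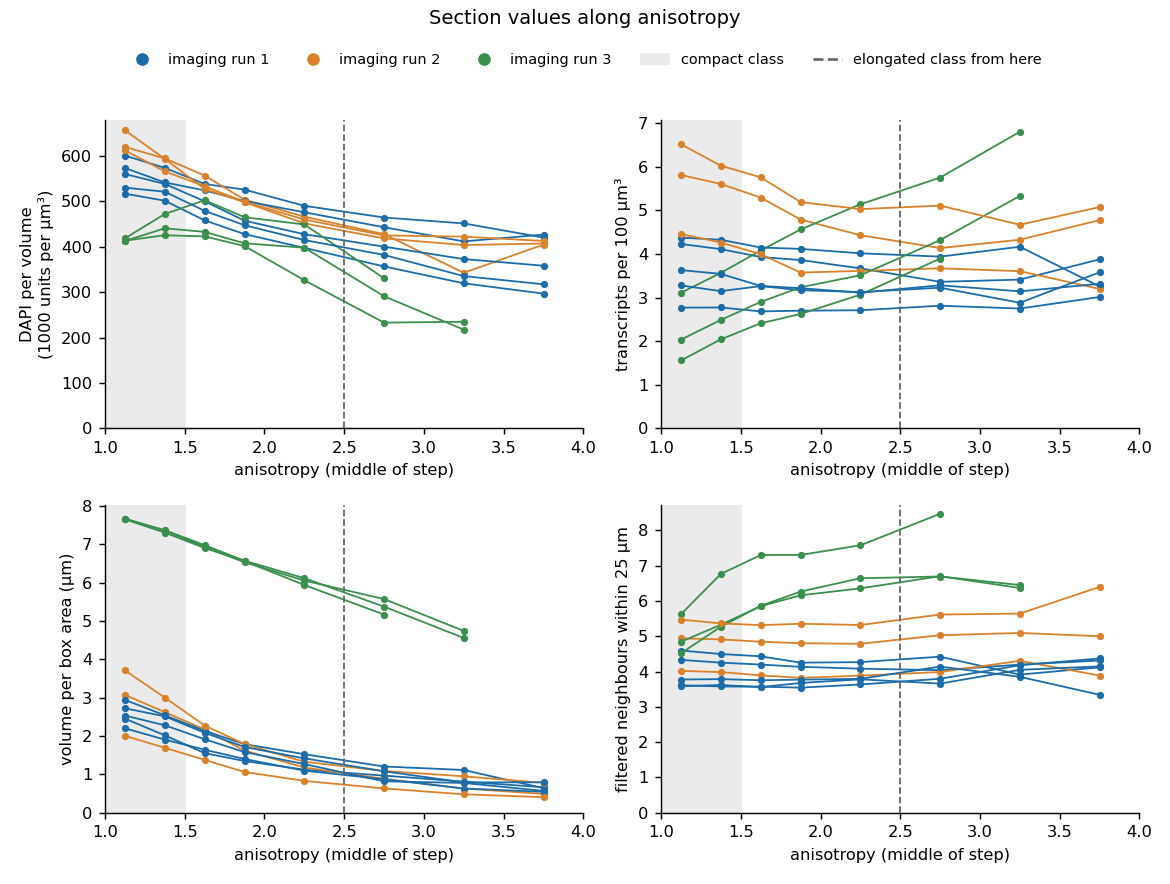
Section values of DAPI per volume, transcripts per 100 µm3, volume per box area (medians) and filtered neighbours within 25 µm (mean) in steps of anisotropy, with 1 line per section coloured by imaging run; steps with under 20 objects are left out and objects of 3.5 or more are drawn at 3.75. Volume per box area declines in all 3 runs, except at the last step of MELANOMA ICI 2. DAPI declines in runs 1 and 2 up to the last step, where MELANOMA 1, CONTROL 2 and MELANOMA 2 turn up. Transcripts per volume rises at every drawn step in run 3.

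The PolyT signal per volume was lower in elongated objects by a small amount in runs 1 and 2. In run 1 it was 275 to 298 in elongated and 298 to 316 in compact objects, a ratio of 0.92 to 0.95 in 5 of 5 sections. In run 2 it was 194 to 199 against 218 to 224, a ratio of 0.865 to 0.896 in 3 of 3 sections. In run 3 the ratios were 0.994 in CONTROL 3, 1.11 in CONTROL ICI 3 and 1.04 in MELANOMA ICI 1, so 2 of 3 sections were higher. Over all sections the difference was -0.075 ± 0.10 on the log2 scale (SD, n = 11; exact sign-flip test, p = 0.0400, adjusted p = 0.0439). The call was lost with 1 object per overlapping set (-0.085; exact sign-flip test, adjusted p = 0.0505) and when any of 9 sections was left out; it held without CONTROL ICI 3 or MELANOMA ICI 1. It was also lost with the limit at anisotropy 2.0 (exact sign-flip test, adjusted p = 0.0879), against all objects below 2.5 (adjusted p = 0.0525) and without objects near a field border (adjusted p = 0.0570).

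Neighbours were counted as filtered objects with a centre within 25 µm. An elongated object had 3.76 to 4.31 neighbours in run 1, 4.03 to 5.68 in run 2 and 6.63 to 7.77 in run 3, as section means. A compact object had 3.59 to 4.53, 4.0 to 5.4 and 4.89 to 6.18. Elongated objects had more neighbours in 9 of 11 sections and fewer in CONTROL 1 and MELANOMA 1. The difference over all sections was 0.13 ± 0.18 on the log2 scale (SD, n = 11; exact sign-flip test, p = 0.0283, adjusted p = 0.0439), and it was 0.39 in run 3 against 0.028 in run 1 and 0.039 in run 2. Without run 3 it was 0.032 (exact sign-flip test, adjusted p = 0.227). Leaving out any single section other than CONTROL 1 or MELANOMA 1 also ended the call.

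Counting 1 object per overlapping set turned the neighbour difference round in runs 1 and 2. There the ratio was 0.804 to 0.923 in run 1 and 0.845 to 0.886 in run 2, lower in 8 of 8 sections, while run 3 kept 1.26 to 1.36. Over all sections the difference was then -0.039 (exact sign-flip test, adjusted p = 0.638). The objects this count removes are themselves close neighbours. In runs 1 and 2, 55.5% to 78.4% of elongated objects overlapped a filtered object, against 31.7% to 54.7% of compact ones. The count can therefore take more neighbours from elongated objects, and its part in the turn was not tested. Weighting compact objects to the volumes of the elongated ones gave ratios on both sides of 1 in each run, and 0.864 to 1.03 in run 3. No direction for neighbour number held across these counts.

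Elongated objects had more elongated neighbours than compact objects had, and in runs 1 and 2 most of this excess was gone with 1 object per overlapping set. Of the filtered neighbours within 25 µm, 11.9% to 20.7% were elongated around elongated objects in run 1, against 3.26% to 3.97% around compact objects. In run 2 the shares were 14.3% to 21.6% against 3.53% to 4.05%. The ratio was 4.42 ± 1.01 (SD, n = 5) in run 1 and 4.59 ± 1.06 (SD, n = 3) in run 2, and fell to 1.2 and 1.01 at 25 to 50 µm. With 1 object per overlapping set it was 1.42 ± 0.326 and 1.35 ± 0.362 within 25 µm, above 1 in 7 of 8 sections.

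In run 3, where boxes hardly overlapped, the neighbourhood of elongated objects was enriched over a longer distance. The ratio was 1.54 ± 0.327 (SD, n = 3) within 25 µm, 1.86 ± 0.195 at 25 to 50 µm, 1.57 ± 0.140 at 50 to 100 µm and 1.31 ± 0.161 at 100 to 200 µm, above 1 in 3 of 3 sections at each of these distances. At 200 to 400 µm it was 1.08 ± 0.245. The count within 25 µm is small, with 30, 4 and 30 elongated neighbours around elongated objects in CONTROL 3, CONTROL ICI 3 and MELANOMA ICI 1. These ratios are given as descriptions, without a test.

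**Figure D5:**
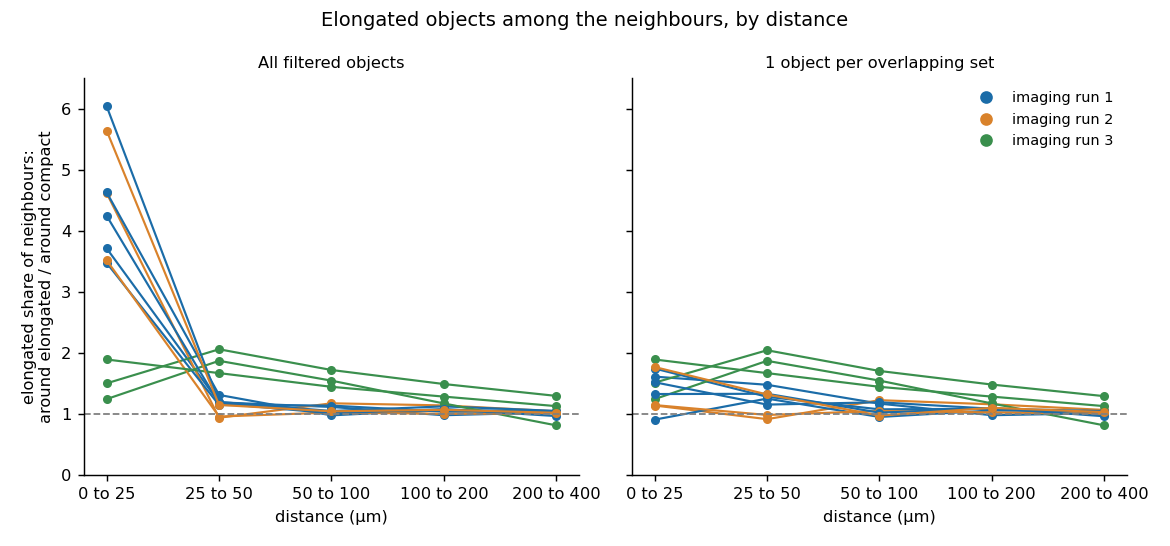
Elongated share of the neighbours around elongated objects divided by that around compact objects, by distance in µm, with 1 line per section coloured by imaging run; the left panel counts all filtered objects and the right panel 1 object per overlapping set. The ratios of 3.47 to 6.04 within 25 µm in runs 1 and 2 become 0.904 to 1.77 in the right panel, and run 3 lies above 1 to 200 µm in both.

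Elongated objects within 25 µm of each other often pointed the same way in the image. Each object was called wide or tall by the longer side of its box. Among pairs within 25 µm, 88.7% to 95.2% in run 1 and 86.6% to 92.6% in run 2 had the same direction, where the mix of each section alone gives 50.02% to 52.8%. With 1 object per overlapping set the agreement was 61.9% to 87.5% in run 1 (122 pairs in all) and 62.2% to 69.0% in run 2 (104 pairs), still above the mix in 8 of 8 sections. At 25 to 50 µm it was 52.1% to 63.1% in run 1 and 48.8% to 59.3% in run 2, where MELANOMA 2 lay below its mix of 51.3%. At 100 to 200 µm it was 55.1% to 62.6% and 55.7% to 57.3%, above the mix in 8 of 8 sections. At 200 to 400 µm it was 49.4% to 59.0% and 52.1% to 55.2%, with MELANOMA 1 below its mix of 50.1%. In run 3 the agreement was 60% to 100% within 25 µm, from 32 pairs in all, and the 100% rests on 2 pairs in CONTROL ICI 3. At 25 to 50 µm it was 42.9% to 64.7%, with CONTROL ICI 3 below its mix. In the step from 50 to 100 µm it was 49.7% to 70.6%, with CONTROL 3 below its mix of 53.4%. It was 55.6% to 57.8% at 100 to 200 µm. The range at 200 to 400 µm was 47.1% to 57.2%, with CONTROL ICI 3 again below its mix. Compact objects are not compared in this measure, so the agreement is not shown to be particular to elongated ones.

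Across each section the elongated objects were spread widely in runs 1 and 2. In squares of 200 µm with at least 20 filtered objects, 3.52% to 19.2% of squares held no elongated object in these runs, against 57.4% to 68.8% in run 3. The tenth of squares with most elongated objects held 22.9% to 29.3% of them in runs 1 and 2 and 44.2% to 49.0% in run 3. The sections of run 3 held 57 to 354 elongated objects. The shares of empty squares and of objects in the fullest squares were not corrected for this lower number. These shares therefore cannot show whether elongated objects were more concentrated in run 3.

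Field borders and tissue edges were checked because outlines can be cut there. The border of an imaging field was taken from the outermost boxes of its own objects, and the tissue edge as squares of 100 µm next to a square without objects. The box came within 5 µm of the border of an imaging field in 10.4% to 16.6% of elongated objects in runs 1 and 2, against 6.62% to 8.43% of compact ones. In run 3 the shares were 8.99% to 10.5% against 12.0% to 12.4%. The mean difference was 3.64 ± 4.54 percentage points (SD, n = 11; exact sign-flip test, p = 0.0303, adjusted p = 0.0439), positive in 8 of 8 sections of runs 1 and 2 and negative in 3 of 3 of run 3. The call was lost with 1 object per overlapping set (3.88 points, exact sign-flip test, adjusted p = 0.0505), and held in the leave-one-out fits only without CONTROL 3, CONTROL ICI 3 or MELANOMA ICI 1. The boxes of elongated objects in runs 1 and 2 were also longer, as given above. Measured from the object's centre, within 10 µm of the outermost centres of its field, the difference was -0.745 points (exact sign-flip test, p = 0.282). By run it was -1.06 points in run 1, 1.55 in run 2, where 3 of 3 sections were higher, and -2.52 in run 3. Elongated objects lay at the tissue edge less often than compact ones in 10 of 11 sections, by 0.840 percentage points (exact sign-flip test, adjusted p = 0.0439), all but MELANOMA ICI 1. That call was lost when any section but MELANOMA ICI 1 was left out and with 1 object per overlapping set (-0.634 points, exact sign-flip test, adjusted p = 0.118) and turned to +3.77 points without the volume and transcript minimum.

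The study's own comparison asks whether a melanoma or checkpoint inhibitors changed the hippocampus. The elongated share was 3.48% ± 2.36 (SD, n = 3) in CONTROL, 4.65% ± 0.589 (SD, n = 2) in MELANOMA, 3.58% ± 2.55 (SD, n = 3) in CONTROL ICI and 3.48% ± 2.47 (SD, n = 3) in MELANOMA ICI. The 4 groups overlapped. MELANOMA has the smallest spread and no section in run 3, and each other group has 1. The ICI difference, averaged over the tumour states, was -0.44 on the log2 scale (exact two-sided permutation test of section labels, p = 0.715, adjusted over 6 measures p = 0.835). The tumour difference was 0.43 (exact permutation test, p = 0.735, adjusted p = 0.735), and the interaction was -0.79 (exact permutation test, p = 0.785). The ICI and tumour designs allow a p as low as 0.00500, and no such limit is given for the interaction.

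Set against sections of the same run, the treatment differences in share were small. They were -0.045 for ICI and -0.042 for the tumour on the log2 scale (exact permutation tests within runs, p = 0.583 for ICI and p = 0.750 for the tumour, smallest possible 0.0417). For ICI, the share was 0.989 times the control's in run 1 and 0.837 times in run 3 without a tumour, and 0.967 times in run 1 and 1.10 times in run 2 with one. For the tumour, it was 0.829 times in run 1 and 1.11 times in run 2 without ICI, and 0.811 times in run 1 and 1.2 times in run 3 with it. For ICI the share was higher in 1 of 4 comparisons, that of run 2, and lower in runs 1 and 3. For the tumour it was lower in run 1 and higher in runs 2 and 3.

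The features of elongated relative to compact objects gave no call between groups either. None of 13 group tests passed, with 0 below an unadjusted p of 0.05, and the same held for the tests within runs. These tests include the volume ratio and the transcripts per volume ratio, which are built from values in the rule. The DAPI and PolyT ratios also divide by volume, 1 of these values. The smallest p-values were those of 2 ICI contrasts. The transcripts per volume ratio was higher with ICI by 0.37 on the log2 scale (exact permutation test, p = 0.270, adjusted p = 0.770) and by 0.15 within runs (p = 0.125, higher in 3 of 4 comparisons). The neighbour ratio was higher with ICI by 0.14 (exact permutation test, p = 0.225, adjusted p = 0.770) and by 0.083 within runs (p = 0.125, higher in 3 of 4). The DAPI ratio was 0.671 ± 0.116 in CONTROL, 0.732 ± 0.0855 in MELANOMA, 0.716 ± 0.0314 in CONTROL ICI and 0.700 ± 0.0369 in MELANOMA ICI. Its ICI difference was 0.023 on the log2 scale, with a range of -0.042 to 0.084 when each section was left out in turn. With 2 or 3 sections per group and runs this far apart, a missed threshold does not show that the groups were alike.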

How the data were processed

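Each of the 11 sections had 1 deposited table with a row per segmented object. Per the file headers, these tables give a transcript count, anisotropy as a ratio, solidity as a score, DAPI and PolyT intensity summed per object, volume and box positions. Segmentation, gene panel and software: not given in the sources used here. No total per section was rescaled. Intensities and transcripts were divided by volume. Sections were assigned to groups from the labels, and to imaging runs from the first 5 digits of the identifiers. Section medians (means for neighbours) of elongated and compact objects were compared as log2 ratios with exact sign-flip tests over sections, and groups with exact permutation of section labels, with Benjamini-Hochberg adjustment and a threshold of 0.05. The members, measures and tests were chosen with earlier results of these data known, and the overlap count was added after the data were seen. Sections were named where they were lowest, highest or went against the rest. No identifier was found in more than 1 section. The tests were checked on simulated data (python 3.11.15, numpy 2.4.6, pandas 2.3.3, scipy 1.17.1). Of simulated log2 changes of 0.5, the ICI test recovered 52%, and 51% within runs. For changes of 1 these values were 95% and 82%. The elongated against compact test recovered 100% at both sizes. Of unchanged measures, 1.875% to 5.5% were called. Mean log2 shares were 2.23, 2.34 and -0.47 in runs 1, 2 and 3 of these data. Whether the simulated runs lay as far apart was not checked, so these rates may not hold for the group tests.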

Additional observations from a re-analysis of the deposited data

Results flagged for a closer look

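In 4 comparisons every section on one side went one way and every section on the other side went the opposite way; these differences were not tested. The log2 ratio of transcripts per volume in elongated over compact objects was -0.33 in run 2 and 0.99 in run 3, a difference of -1.32. The same ratio was 0.40 in CONTROL ICI and -0.20 in MELANOMA, a difference of 0.60. CONTROL ICI holds a section of run 3 and MELANOMA holds none, so the difference of 0.60 mixes groups with runs. In run 1, which holds sections of each group, the log2 ratio was 0.024 in CONTROL ICI 1 and 0.014 in CONTROL ICI 2. It was -0.14 in MELANOMA 1. CONTROL ICI and MELANOMA differ in tumour as well as in ICI, so their difference belongs to neither alone.

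The elongated minus compact share of objects near a field border was 4.93 percentage points in run 1 and -2.67 in run 3, a difference of 7.60 points. Between run 2, at 7.80 points, and run 3 the difference was 10.5 points.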

How the results depend on the processing

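Of the tested results, the lower DAPI signal per volume stayed past the threshold in all alternatives with more than 1 run. Within single runs it was -0.44, -0.53 and -0.63, where the test cannot pass. Values are log2 differences unless in points.

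Elongated against compact, by measure; for the 4 tested measures listed here, the call was lost or the sign turned at each value given. PolyT per volume: -0.057 at anisotropy 2.0, -0.057 against all objects below 2.5, -0.079 without border objects, -0.085 with 1 object per overlapping set, -0.098, -0.18 and 0.063 in runs 1, 2 and 3. Neighbours: 0.029 with at least 200 µm3 and 50 transcripts, 0.094 at anisotropy 2.0, 0.061 at 3.0, 0.094 among all objects, 0.035 within 50 µm, -0.049 volume-matched, 0.12 without border objects, -0.039 with 1 object per overlapping set, 0.032 without run 3, and 0.028, 0.039 and 0.39 by run. Field border in points: 3.56 under the stricter minimum, 2.69 at 2.0, 4.28 at 3.0, 2.78 against all below 2.5, 3.83 within 10 µm, -0.745 by centre, 3.88 with 1 object per overlapping set, and 4.93, 7.80 and -2.67 by run. Tissue edge in points: 3.77 with no minimum, -1.11 under the stricter one, -0.470 at 2.0, -0.424 at 3.0, -0.754 against all below 2.5, -0.998 without border objects, -0.634 with 1 object per overlapping set, and -0.745, -1.28 and -0.555 by run. Volume moved to -1.23 with no minimum; transcripts per object moved to -0.024 under the stricter minimum and -0.10 volume-matched.

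Leaving out each section gave -0.53 to -0.48 for DAPI, -0.097 to -0.062 for PolyT, 0.097 to 0.15 for neighbours, 3.10 to 4.34 points at field borders, -1.12 to -0.671 points at tissue edges, -0.59 to -0.47 for volume, -0.38 to -0.31 for transcripts per object and 0.033 to 0.19 for transcripts per volume.

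Group differences, none past the threshold in any setting, changed sign as follows. No minimum: ICI volume 0.15 and neighbours -0.022, tumour neighbours 0.017. Stricter minimum: ICI volume 0.015 and DAPI -0.021, tumour PolyT 0.017. Anisotropy 2.0: tumour DAPI -0.015. Anisotropy 3.0: ICI DAPI -0.030 and PolyT -0.0018, tumour PolyT 0.023 and neighbours 0.0018. Means for medians: tumour DAPI -0.00090. Volume-matched: ICI DAPI -0.063. Run as a stratum: tumour share -0.042, volume -0.11, transcripts per volume 0.0038, DAPI -0.037 and neighbours 0.022, ICI volume 0.015, interaction 0.18. Without run 3: ICI share 0.056 and DAPI -0.035, tumour share -0.070. In the 9 sections that share a run with a partner: ICI share 0.20, volume 0.046 and PolyT -0.0012, tumour share -0.29, volume -0.14, transcripts per volume 0.098, DAPI -0.030, PolyT 0.0052 and neighbours 0.041. The cause was not tested. Of 15 same-numbered pairs, 7 correlated above 0.1 (-0.96 to 0.89). Each correlation rests on 6 measures, and many pairs join sections of different runs. These values therefore cannot show whether replicate numbers pair sections. With the replicate block the tumour differences were -0.0042 for share, -0.078 for volume, -0.018 for DAPI and 0.013 for neighbours, and 0 tests had an unadjusted p below 0.05.

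Leave-one-out ranges for ICI were -0.88 to 0.058 (share), -0.31 to 0.0025 (volume), 0.17 to 0.57 (transcripts per volume), -0.042 to 0.084 (DAPI), 0.016 to 0.081 (PolyT) and 0.083 to 0.21 (neighbours). For the tumour they were -0.067 to 0.87, -0.068 to 0.24, -0.43 to -0.024, -0.014 to 0.11, -0.069 to 0.0053 and -0.12 to 0.0088, and for the interaction -1.78 to 0.094. One or more share contrasts changed sign without CONTROL 3, CONTROL ICI 3 or MELANOMA ICI 1. Counting 1 object per overlapping set, leaving out run 3, the centre distance and the 9 sections were chosen after seeing the data. With no minimum, medians of 0 gave no ratio for transcripts per object or per volume. CONTROL ICI 3, with 57 elongated objects, is the least precise section.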
